A study of Mus musculus with 31 samples.

Results

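The regions described here are stretches of the mouse genome that carried trimethylated lysine 4 of histone H3 (H3K4me3) in hippocampus and lay away from every protein-coding gene. They were chosen by measured values: peaks of the 4 H3K4me3 lists with more than 10000 peaks were merged, and a merged region was kept if it had a peak in at least 2 of those lists. It also had to lie outside all protein-coding genes, more than 5 kb from both of their ends, and to overlap H3K4me1 peaks of fewer than 8 libraries. On the autosomes and X this gave 944 intergenic regions, which is 6.45% of the 14645 merged regions found in 2 or more long lists and part of 22623 merged regions in all. Peak presence in the long lists therefore defines the set, and its values in those lists are given as a description.

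ChIP-seq was done on hippocampus of C57BL6 mice that were 30 days old, with Abcam antibodies to H3K4me3 or to the monomethyl mark H3K4me1. The study asks whether loss of 1 copy of the H3K4 methyltransferase gene Kmt2d changes these marks, and what the compound TAK-418 does to them with and without that loss. TAK-418 inhibits LSD1, an enzyme that removes methyl groups from H3K4. The 4 groups were heterozygotes KMT2D+/bGeo given TAK-418 (het TAK-418), heterozygotes given the vehicle methylcellulose alone (het vehicle), KMT2D+/+ mice given TAK-418 (WT TAK-418) and KMT2D+/+ mice given vehicle (WT vehicle). The drug was given by gavage at 1 mg/kg/day for 2 weeks, starting at 2 weeks of age. Each group had 4 H3K4me3 libraries from 4 mice, and exactly 1 of the 4 gave a long list. The other 12 H3K4me3 lists held 302 to 2281 peaks and are called short lists, and the 15 H3K4me1 lists held 88 to 456 peaks. Whole hippocampus mixes cell types, so that fewer cells of a type and less of the mark per cell cannot be told apart.

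Several facts of the series bear on all values. Kmt2d and Kdm1a, the gene of LSD1, had a peak at an end in 4 of 4 long lists, which does not check the genotype. Of 6 markers of hippocampal excitatory neurons 5 had a peak in all 4 long lists, as did 3 of 3 oligodendrocyte markers (Olig1, Olig2, Mbp). Of the 3 markers of microglia and the 4 of other organs none had a peak in any long list. Of the astrocyte markers Slc1a3 had a peak in 2 long lists, Gfap in 1 and Aqp4 in 0, and of the inhibitory neuron markers Gad1 had one in 4, and Gad2 and Dlx1 in 3 each. Sex was not given in the sources used here, and peaks on Y were present in 3 of 4 het TAK-418, 2 of 4 het vehicle, 2 of 4 WT TAK-418 and 1 of 4 WT vehicle H3K4me3 libraries.

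H3K4me3 is deposited around the start sites of genes that are transcribed or poised, most densely at starts rich in CpG. Away from protein-coding genes such sites can be starts of long noncoding RNAs (lncRNAs), of the primary transcripts that are cut into miRNAs, or of genes that RNA polymerase III transcribes, such as tRNA and 5S rRNA genes. In brain, miR-9 and miR-124 are the best known neural miRNAs: miR-9 acts in neural progenitors and young neurons, and miR-124 is abundant in neurons. miRNAs recognise their targets mainly through the seed, bases 2 to 8 of the mature strand, so that members of a seed family share targets.

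A miRNA gene was tied to an intergenic region within 2 kb upstream or downstream, which does not show that its transcript starts there. At Mir1897 and Mir8099-2 the region lies downstream of the hairpin. Of the 38 miRNA genes tied to a region, 29 had a sequence in the RefSeq table. In the following mature sequences (RefSeq, GRCm38.p6), capitals mark the seed. The first comes from 3 separate genes, Mir9-1, Mir9-2 and Mir9-3, each at a region of its own. The next 4 share 1 seed and come from 2 clusters on different chromosomes, Mir17 and Mir20a on chromosome 14, and Mir20b and Mir106a on X. The miR-193 pair also shares a seed across 2 chromosomes. The last 3 belong to other families, and each has a gene within 2 kb of a region found in all 4 lists.
miR-9-5p: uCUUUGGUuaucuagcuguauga
miR-17-5p: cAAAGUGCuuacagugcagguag
miR-20a-5p: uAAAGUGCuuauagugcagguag
miR-20b-5p: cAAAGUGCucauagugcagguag
miR-106a-5p: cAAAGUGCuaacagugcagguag
miR-193a-3p: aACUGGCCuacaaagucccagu
miR-193b-3p: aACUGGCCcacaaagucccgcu
miR-137-3p: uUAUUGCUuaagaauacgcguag
let-7i-5p: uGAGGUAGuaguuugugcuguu
miR-125b-5p: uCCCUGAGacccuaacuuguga

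Starts of lncRNAs inside the regions show the DNA that carries the mark. The following are 5 of the 209 lncRNA promoters (186 genes) that overlap an intergenic region by at least 1 base. Each has 250 bases before and 50 after the start. They are written 5′ to 3′ on the gene's strand with every CpG in capitals (RefSeq, GRCm38.p6, the assembly also called mm10). They are Malat1 (chr19:5802623-5802922, minus strand), Meg3 (chr12:109540746-109541045, plus strand), Mir9-3hg, the host transcript of Mir9-3 (chr7:79499776-79500075, plus strand), C130071C03Rik (chr13:83721131-83721430, plus strand), and Chaserr, the neighbour of Chd2 (chr7:73558346-73558645, minus strand). C130071C03Rik has starts upstream of Mir9-2, on the same strand. The 5 promoters hold 10, 13, 35, 12 and 30 CpGs in the order given.
Malat1: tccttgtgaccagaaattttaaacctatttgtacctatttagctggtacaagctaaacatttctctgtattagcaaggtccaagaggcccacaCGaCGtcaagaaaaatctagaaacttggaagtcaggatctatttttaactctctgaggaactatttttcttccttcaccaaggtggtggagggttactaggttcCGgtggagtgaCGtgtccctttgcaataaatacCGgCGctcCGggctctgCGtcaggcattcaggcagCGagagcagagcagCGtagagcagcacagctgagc
Meg3: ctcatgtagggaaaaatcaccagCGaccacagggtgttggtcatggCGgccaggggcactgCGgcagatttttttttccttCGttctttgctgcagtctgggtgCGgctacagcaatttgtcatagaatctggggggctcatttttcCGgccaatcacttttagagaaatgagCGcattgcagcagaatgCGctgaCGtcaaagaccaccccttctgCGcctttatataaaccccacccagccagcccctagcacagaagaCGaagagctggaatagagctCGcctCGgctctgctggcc
Mir9-3hg: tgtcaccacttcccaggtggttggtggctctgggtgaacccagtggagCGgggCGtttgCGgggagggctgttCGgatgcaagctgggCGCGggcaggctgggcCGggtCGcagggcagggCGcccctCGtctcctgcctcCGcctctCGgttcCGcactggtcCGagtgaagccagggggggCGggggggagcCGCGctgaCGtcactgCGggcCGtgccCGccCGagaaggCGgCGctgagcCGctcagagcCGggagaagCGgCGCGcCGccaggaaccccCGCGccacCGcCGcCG
C130071C03Rik: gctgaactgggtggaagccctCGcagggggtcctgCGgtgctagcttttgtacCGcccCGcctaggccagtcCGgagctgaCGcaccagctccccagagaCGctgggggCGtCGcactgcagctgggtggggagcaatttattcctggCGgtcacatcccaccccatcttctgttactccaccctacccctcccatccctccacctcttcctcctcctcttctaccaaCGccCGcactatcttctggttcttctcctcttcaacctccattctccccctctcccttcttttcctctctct
Chaserr: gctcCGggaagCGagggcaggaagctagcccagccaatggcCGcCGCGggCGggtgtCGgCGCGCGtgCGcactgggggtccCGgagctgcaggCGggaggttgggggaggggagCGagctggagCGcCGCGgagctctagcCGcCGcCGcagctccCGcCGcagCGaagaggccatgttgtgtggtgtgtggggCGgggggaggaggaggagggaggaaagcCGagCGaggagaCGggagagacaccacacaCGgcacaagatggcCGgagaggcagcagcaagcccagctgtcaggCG

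Almost as many regions lay at a noncoding gene as did not. A noncoding gene had an end (or its start, where the strand was known) within 2 kb of 445 of the 944 regions (47.1%), against 17.4% of the 1307 regions inside protein-coding genes and 18.3% of the 11583 regions at protein-coding gene ends. The rule used neither noncoding genes nor their position, but a region at a gene end is crowded by definition, so these shares describe the sets and were not tested. The share grew with the number of lists that held the region: 33% of the 355 regions in 2 lists, 43.3% of the 208 in 3 lists and 62.5% of the 381 in all 4. The same shares for regions at gene ends were 15.8%, 16.7% and 18.7%. Regions just below the rule, with a peak in 1 list only, numbered 3444, had a median width of 332 bases, and 12.1% of them lay at a noncoding gene.

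The lncRNAs were the largest class, with 271 regions, followed by pseudogenes with 118, tRNA genes with 50 and miRNA genes with 24. Small nuclear RNA genes, which encode parts of the spliceosome and related particles, had 16 regions, 5S rRNA genes 11, small nucleolar RNA genes 10 and other small RNA genes 9, and 1 region can count in several classes. A peak in all 4 long lists was found for 70.8% of regions at miRNA genes, 56.8% of those at lncRNAs and 54% of those at tRNA genes, but for 28.7% of the 499 regions without a noncoding gene. Read from the side of the genes, 44 of 63 rRNA genes (69.8%) and 92 of 408 tRNA genes (22.5%) lay at an intergenic region. For lncRNA genes it was 299 of 12706 (2.35%), and for noncoding genes of all classes 630 of 27225 (2.31%). At any merged region of the long lists, intergenic or not, lay 77.8% of rRNA, 54.2% of tRNA, 21.3% of lncRNA and 15.2% of all noncoding genes.

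**Figure D1:**
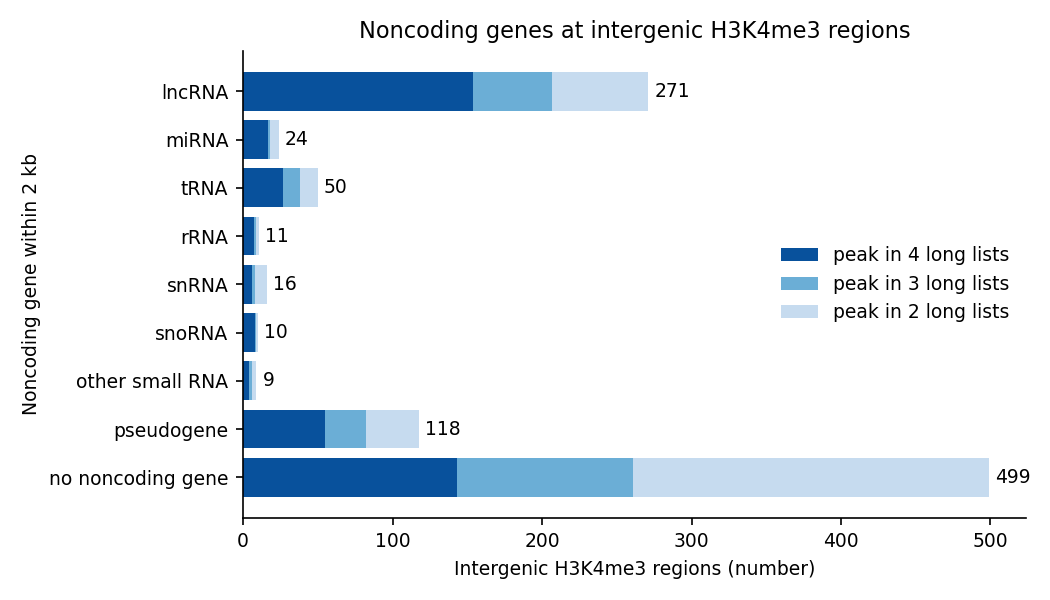
Number of intergenic H3K4me3 regions (x axis) with a noncoding gene of each class within 2 kb (y axis), split by the number of long lists with a peak. lncRNAs lead with 271 regions, and the 499 regions without a noncoding gene hold the largest number with only 2 lists (238).

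The tRNA genes at these regions were spread over the amino acids. The 92 genes covered 20 amino acids, most often alanine and leucine (9 genes each) and proline (8), with 1 gene each for serine and cysteine. Phenylalanine had the highest share, 4 of its 7 genes (57.1%), and cysteine the lowest, 1 of 56 (1.79%). A single stretch, chr13:21159215-21327192, held 8 regions within 168 kb, all 8 at tRNA genes. The 5S rRNA genes lie in a tandem array on chromosome 8, where 11 regions covered 65047 bases between chr8:123547121 and chr8:123624264. The copies of this array are nearly identical, and how reads that fit several copies were placed is not given in the sources used here, so the share of each copy is uncertain.

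Of a list of 48 names of well known noncoding RNA genes, 19 lay at an intergenic region, 14 of them at a region found in all 4 lists. A further 18 had a region that was not intergenic by the rule or was in too few lists. No region in any long list was found for 9 (Rian, Mirg, Rmst, Tsix, Ftx, Snhg14, Sox2ot, Hotair and H19). The last 2 names, Mirlet7bhg and Cyrano, were not in the gene annotation, and Cyrano is another name of Oip5os1. The brain-enriched or widely expressed lncRNAs at a region of 4 lists were Malat1, which localises to nuclear speckles, Meg3, an imprinted maternally expressed RNA, Miat, a nuclear RNA of neurons, Norad, which binds Pumilio proteins, Oip5os1, which directs the decay of miR-7, Tunar, Lncpint, Pvt1, the neighbour of Myc, and Jpx, an activator of Xist. The snoRNA host Snhg15 and the miRNA hosts Mir9-3hg, Mir124a-1hg, Mir17hg and Dleu2, the host of miR-15a and miR-16, were also in 4 lists. Snhg11, Mir100hg and Terc, the RNA template of telomerase, were in 3, and Mir124-2hg and Mir99ahg in 2.

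Meg3 and its neighbours differed. Meg3 peaks covered 469 bases in het TAK-418, 1406 in het vehicle, 1513 in WT TAK-418 and 922 in WT vehicle, at chr12:109540406-109542555, while Rian and Mirg, which lie in the same imprinted domain downstream of Meg3, had no peak. Norad peaks at chr2:156390428-156393032 covered 973, 711, 2605 and 1218 bases in the same 4 libraries, with a fold enrichment over local background, as given by the authors, of 7.07, 6.72, 6.14 and 4.38. Oip5os1 at chr2:119593939-119595181, 6915 bases from Chp1, had 7.73, 3.96, 7.65 and 7.43, above the upper quartile of the regions in 3 of the lists. Terc was missed in het vehicle, where its region had no peak, and had a fold enrichment of 4.92 in het TAK-418, 7.10 in WT TAK-418 and 5.01 in WT vehicle. With 1 long list per group these differences have no replicate check.

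All 3 genes of miR-9 and all 3 genes of miR-124 lay at intergenic regions found in all 4 long lists. Of the 24 regions at miRNA genes 17 were in all 4 lists. None of the 24 overlapped an H3K4me1 peak, but only 50 of all 944 regions (5.3%) did, so this sets the miRNA genes little apart. The region of Mir9-1 (chr3:88213605-88216562) had peaks over 2850 bases in het TAK-418, 1474 in het vehicle, 1929 in WT TAK-418 and 2140 in WT vehicle. The region of Mir9-2 (chr13:83737621-83740052) had 597, 1166, 2090 and 1761 bases in the same order, and that of Mir9-3 (chr7:79504509-79507610) had 2698, 1857, 2906 and 2023. All 12 values were above 0, and Mir9-2 in the het TAK-418 list was the lowest. For miR-124, Mir124a-1 lay in a region of 7781 bases (chr14:64585695-64593475), Mir124a-2 was 621 bases from a region of 1384 bases (chr3:17793658-17795041), and Mir124a-3 lay in one of 4631 bases (chr2:180890026-180894656).

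The Mir17 cluster, which encodes Mir17, Mir18, Mir19a, Mir20a, Mir19b-1 and Mir92-1, lay 1127 bases from a region in all 4 lists at chr14:115040212-115042544. Its peaks covered 2084 bases in het TAK-418, 2049 in het vehicle, 2333 in WT TAK-418 and 2048 in WT vehicle, a range of 2048 to 2333. The paralogous cluster on X (Mir106a, Mir18b and Mir20b, at the lncRNA Kis2) had a region in 2 lists, with 571 bases in het vehicle, 485 in WT TAK-418 and no peak in the other two. The miR-193 genes were both in 4 lists, with a fold enrichment at Mir193a (chr11:79710749-79712641) of 7.08, 4.82, 6.61 and 5.46 and at Mir193b (chr16:13447058-13448710) of 5.28, 5.33, 8.50 and 6.66 in het TAK-418, het vehicle, WT TAK-418 and WT vehicle. Mir137, Mirlet7i, Mir125b-1, Mir129-2, Mir760 and Mir6516 were also at regions of 4 lists, Mir7671 at one of 3, and Mir7b, Mir125b-2, Mir713, Mir1897 and Mir8099-2 at regions of 2. Mir1949, Mir1906-1, Mir3078 and Mir3093 lay at regions of 4 lists shared with the other genes Snhg4, Meg3, Mir124a-1 and Mir9-1.

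The 12 regions with the widest peaks, on the mean over the 4 lists, were all in 4 lists and had means of 2924 to 9122 bases. The 5S rRNA array gave 4, led by chr8:123608068-123624264, with 8966 bases in het TAK-418, 4003 in het vehicle, 14081 in WT TAK-418 and 9439 in WT vehicle. Malat1 (chr19:5796342-5804098) followed with 7001, 2660, 7757 and 5869 bases, the het vehicle list giving the lowest value. C130071C03Rik gave 2 adjacent regions between Mef2c and Mir9-2. The first, chr13:83720525-83728219, had 5244, 7014, 5932 and 2679 bases. The second, chr13:83728827-83734374, had 4459, 2057, 4587 and 4256. The regions of Mir124a-1 and Mir124a-3 had means of 4925 and 3802 bases.

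The remaining 3 of the 12 were chr15:85669670-85674869, chr11:120185253-120190128 and chr2:18025945-18029235. The first had no noncoding gene within 2 kb and lay 31.7 kb from Mirlet7c-2. Its fold enrichment was 6.82 in het TAK-418, 6.06 in het vehicle, 7.90 in WT TAK-418 and 7.75 in WT vehicle, above the upper quartile of the regions in each list. The second lay at 2810410L24Rik and Gm9734, and the third at Gm17762, 14.9 kb from Skida1. Of the 12, 2 overlapped an H3K4me1 peak of at least 1 library, both in the 5S rRNA array.

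Within gaps of at most 50 kb, 284 of the 944 regions fell into 105 groups of 2 or more, and 10 groups had 5 or more. These included the 5S rRNA and tRNA stretches above, the 6 regions around Mir9-3 (chr7:79499006-79544109, between Polg and Rhcg), 5 around Mir9-2, and 5 at snRNA genes (chr12:54709832-54734893, between Eapp and Snx6). Groups without a noncoding gene were the 6 regions between Nanos3 and Zswim4 (chr8:84183234-84204273) and the 5 on X whose nearest protein-coding gene is Asmt (chrX:170809409-170881258). The median distance of a region to the nearest end of a protein-coding gene was 25.4 kb and the longest was 1557.1 kb. At the limit of the rule, 37 regions lay 5 to 6 kb from an end, with a median width of 819 bases, and 42 merged regions at 4 to 5 kb had a median of 749.5 bases.

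Peaks in intergenic regions were narrower and less enriched than peaks at gene ends in each long list. The median number of bases covered in intergenic regions was 670 in het TAK-418, 646 in het vehicle, 656 in WT TAK-418 and 562 in WT vehicle, against 1090, 969, 1106 and 911 bases at gene ends in the same libraries. The intergenic median was lower by 420, 323, 450 and 349 bases, a mean difference of -385.5 ± 59.4 bases (SD, n = 4 libraries; intergenic minus gene end). The same lists chose the regions, so these widths are a description. Among regions of all 4 lists alone the intergenic medians were lower by 309, 223, 244 and 275 bases. The median fold enrichment was 4.65, 3.29, 4.28 and 4.35 in intergenic regions, against 6.13, 4.32, 6.36 and 5.46 at gene ends. The authors' fold enrichments differ in level between the lists, with het vehicle the lowest for both kinds of region.

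**Figure D2:**
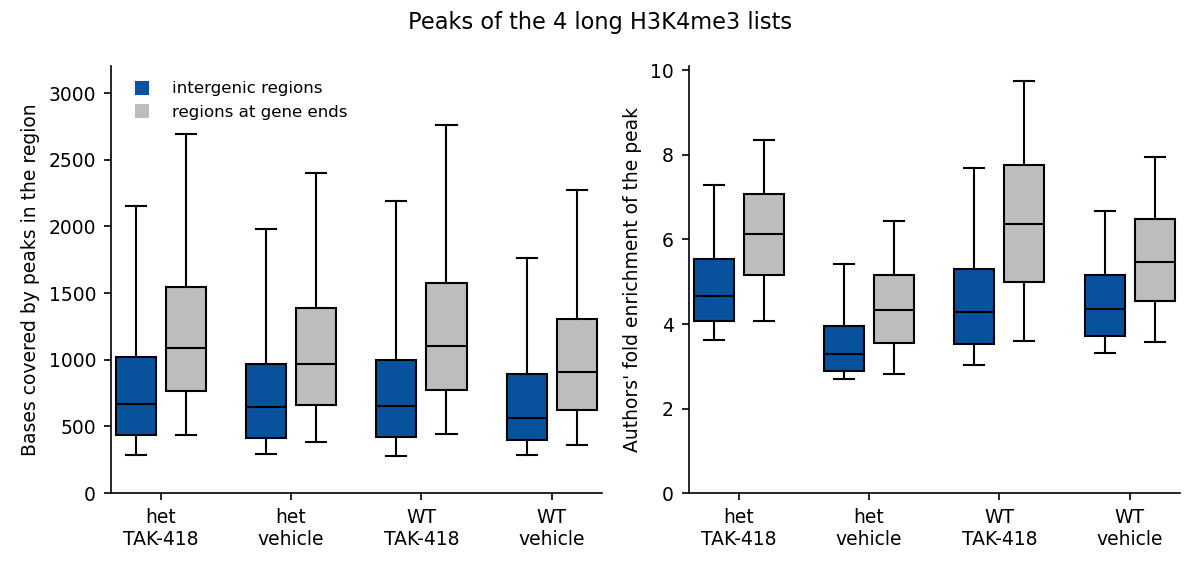
Bases covered by peaks per region (left) and the authors' fold enrichment (right) in the 4 long H3K4me3 lists (x axis, 1 library each), for intergenic regions beside regions at protein-coding gene ends. Boxes are quartiles with the median, whiskers run from the 5th to the 95th percentile, and in all 4 libraries the intergenic median is lower.

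The long lists held different numbers of these regions. A peak was present in 805 of the 944 regions in het TAK-418 (85.3%), 659 in het vehicle (69.8%), 852 in WT TAK-418 (90.2%) and 542 in WT vehicle (57.4%). Regions at gene ends, which were wider, were present in 11233, 10638, 11410 and 10606 of 11583. Of the regions in exactly 2 lists, 170 were shared by the TAK-418 lists of both genotypes and 12 by both vehicle lists, with 74 in het vehicle and WT TAK-418, 47 in both het lists, 31 in both WT lists and 21 in het TAK-418 and WT vehicle. The lists themselves held 16167, 16390, 16750 and 13343 peaks. Because each group has 1 long list, treatment and library cannot be told apart here, and these counts are what the rule selected on.

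Promoters overlapping the regions were richer in CpG than those of intergenic lncRNAs without a peak. A promoter counts as in a region if any of its 300 bases overlaps it. The observed to expected CpG ratio of the 300 bases had a median of 0.624 over the 209 lncRNA promoters in a region, 0.2 over 6394 promoters of intergenic lncRNAs without a peak, and 0.815 over 9708 protein-coding promoters in regions of 4 lists. A ratio over 0.6 was found in 56%, 3.43% and 83.9% of these. Among the promoters in intergenic regions the median was 0.504 for regions in 2 lists (n = 42), 0.599 in 3 lists (n = 36) and 0.697 in 4 lists (n = 131). Neighbouring promoters of 1 gene share sequence, so these are descriptions. The 5 promoters printed above spanned 0.492 (C130071C03Rik) to 0.84 (Mir9-3hg), with Malat1 at 0.604, Meg3 at 0.602 and Chaserr at 0.826.

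Exact matches to 5 promoter motifs were sought on both strands of the 300 bases. The GC box (GGGCGG) was in 57.9% of lncRNA promoters in regions, 6.85% of those without a peak, 72.2% of protein-coding promoters in regions of 4 lists and 35.9% of all 32619 promoters. The cAMP response element (TGACGTCA), bound by CREB, was in 5.26%, 0.61%, 3.57% and 1.8% of the same sets, and the E-box CACGTG in 13.9%, 5.35%, 10.8% and 7.2%. The TATA box (TATAAA) went the other way, in 12.9%, 18%, 5.46% and 13.7%, and the CCAAT box (CCAAT) was in 32.1%, 38.1%, 37.4% and 37.6%. Of the promoters printed above, Meg3 holds a TATA box, a CCAAT box and a cAMP response element, and Mir9-3hg a GC box and a cAMP response element. Chaserr holds a GC box and a CCAAT box, C130071C03Rik a GC box, and Malat1 none of the 5 motifs. Motifs rich in CpG occur more often in promoters rich in CpG, and a match is a description of the letters.

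Few regions had a peak in the short lists. A peak in at least 1 of the 12 short lists was found in 104 regions (11%), against 25% of regions at gene ends. Het TAK-418 libraries had a peak in 21, 8 and 20 regions, het vehicle libraries in 18, 7 and 25, WT TAK-418 libraries in 27, 12 and 43, and WT vehicle libraries in 31, 56 and 16. The groups overlapped in every comparison, and the counts moved with the length of the list, the lists with the most regions (56 and 43) being the longest, with 2281 and 1728 peaks. Het vehicle averaged 16.7 ± 9.07 regions and WT vehicle 34.3 ± 20.2 (SD, n = 3 each), a difference of -0.30 on the log10(number + 1) scale (exact permutation test, two-sided, p = 0.3, adjusted p = 0.6 over 4 comparisons). Without 1 library at a time it ran from -0.43 (without WT vehicle replicate 4) to -0.15 (without het vehicle replicate 3). Among regions without an H3K4me1 peak, a subset chosen after seeing the data, it was -0.75 (exact permutation p = 0.1, the smallest possible). The het vehicle short lists (408, 305 and 499 peaks) were all shorter than those of WT vehicle (715, 2281 and 768). The part of list length in this difference was not tested.

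Differences with TAK-418 were within the spread between libraries. Het TAK-418 averaged 16.3 ± 7.23 regions and het vehicle 16.7 ± 9.07 (SD, n = 3 each; exact permutation p = 1, adjusted p = 1). WT TAK-418 averaged 27.3 ± 15.5 and WT vehicle 34.3 ± 20.2 (SD, n = 3 each; exact permutation p = 0.7, adjusted p = 0.933), and het TAK-418 against WT vehicle gave an exact p of 0.3 (adjusted p = 0.6), with a log10 difference of -0.29 that was -0.59 among regions without an H3K4me1 peak (exact permutation p = 0.2). The difference on the log10 scale was 0.00736 in heterozygotes and -0.0956 in WT, and these effects differed by 0.103, with p = 0.695 by exact permutation of treatment within genotype. With 3 libraries against 3 the smallest p is 0.1, so none of these 4 comparisons can reach 0.05. Per 100 peaks of a list the order of het vehicle and WT vehicle turned, to 3.91 ± 1.43 in het vehicle and 2.96 ± 1.21 in WT vehicle (exact permutation p = 0.4).

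**Figure D3:**
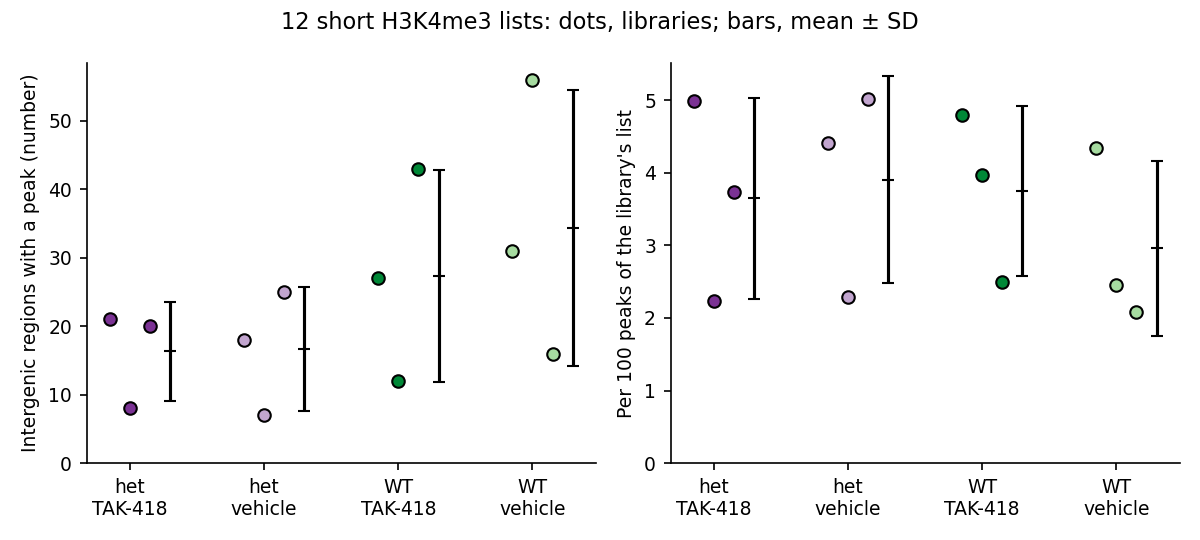
Intergenic regions with a peak in each of the 12 short H3K4me3 lists (left, number; right, per 100 peaks of the list), by group. Dots are libraries and bars the mean with SD (n = 3); the groups overlap in both panels, and WT vehicle holds the highest number (56).

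Regions with an H3K4me1 peak recurred in the short lists more often than the others. Of the 50 regions that overlapped an H3K4me1 peak of 1 to 7 libraries, 45 (90%) also had an H3K4me3 peak in a short list. Among the 894 regions without an H3K4me1 peak it was 59 (6.6%). The H3K4me1 lists held only 88 to 456 peaks, so a region without such a peak may still carry H3K4me1. A further 69 regions met every other condition and were left out for H3K4me1 peaks of 8 or more libraries. The 5 intergenic regions with a peak in the most short lists were chr8:20121416-20123980 and chr8:19784054-19785616 (12 of 12), chr1:195241483-195242010 (10), chr8:20423105-20426101 (9) and chr5:32728702-32730632 (9). All 5 overlapped H3K4me1 peaks, of 2 to 7 libraries. Those on chromosome 8 lie among near-identical copies, so that their share of reads is uncertain. The region on chromosome 1, 64.6 kb from Cr2, had a fold enrichment of 46.3 in het TAK-418, 10.6 in het vehicle, 40.6 in WT TAK-418 and 26.3 in WT vehicle. This was the highest of any intergenic region in 3 of the lists. The highest values at gene ends were 13.1, 9.77, 14.4 and 12.1 in the same order.

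The authors' deposited tables of differential H3K4me3 regions list regions for 4 comparisons, each with a score for every library of both groups and a −log10 p of at least 1.3. The scores name no library, and each group has 4 scores, as it has 4 libraries. If these are the 4 libraries of the labels, the long-list libraries that chose the regions are among them. In all, 127 listed regions of the 4 comparisons overlapped an intergenic region, 61 different ones, of which 36 had no H3K4me1 peak. The comparisons share groups, and their values are given side by side. limma on log2(score + 1) was fitted to each whole table, with Benjamini-Hochberg adjustment.

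In het vehicle against WT vehicle most listed intergenic regions were lower. The authors' table held 15 of the 944 regions (1.59%) with lower and 5 (0.53%) with higher scores in het vehicle, against 10.2% and 0.826% of all 14645 merged regions of 2 or more long lists. The 5 listed as lower with the smallest authors' p were at Gm20584 and 2610005L07Rik on chromosome 8 (chr8:20423851-20424950), at Mir760 and the arginine tRNA gene n-TRtct2 (chr3:122293201-122293900), at B330016D10Rik near Spen (chr4:141546351-141547050), at Mir17hg (chr14:115040851-115041700) and 6.76 kb from Mirlet7a-1 (chr13:48546151-48546450). At Mir760 the scores were 72, 141, 40 and 47 in het vehicle, against 97, 130, 233 and 112 in WT vehicle. Het vehicle had the lowest 3 scores and the groups overlapped, with a log2 difference of -1.01 ± 0.62 (SE; limma, adjusted p = 0.575).

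At Mir17hg the scores were 133, 140, 16 and 102 in het vehicle, against 114, 171, 231 and 117 in WT vehicle, and the value of 16 stood apart below the rest (log2 difference -1.01 ± 0.73 SE; limma adjusted p = 0.575). B330016D10Rik had 40, 169, 54 and 44 in het vehicle, against 71, 169, 156 and 131 in WT vehicle. The region listed as higher with the smallest p lay 202.9 kb from Asmt, which encodes the last enzyme of melatonin synthesis (chrX:170880951-170881450). Its scores were 251, 73, 266 and 616 in het vehicle and 328, 209, 20 and 177 in WT vehicle, and they overlapped. The other 4 listed as higher were at Gm13241 and Gm13238, both among zinc finger genes on chromosome 4, at chr8:20122151-20122650 and at chr2:22744751-22745050 near Apbb1ip.

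In this comparison the groups' scores did not overlap at 2.03% of the 2015 regions in the table and at 0 of the 20 in intergenic regions. limma with Benjamini-Hochberg adjustment called 0 regions (0% of 2015; 82 at an unadjusted p under 0.05, 1 of them intergenic; smallest adjusted p = 0.575). The direction depended on scaling: 5 of the 20 were higher in het vehicle as deposited and 14 of the 20 after each library was centred on its median score. Over all 2015 regions, 11.2% were higher as deposited and 43.8% after centring, and the part of the log2 difference taken out by centring was -0.661 at the median. Of the 20, 10 lay in regions with an H3K4me1 peak, and without those 9 were lower and 1 was higher.

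More intergenic regions were listed as higher than as lower in het TAK-418 against het vehicle. Of the 944 regions 23 (2.44%) were listed as higher in het TAK-418 and 6 (0.636%) as lower, against 3.84% and 3.24% of all merged regions, so both shares were below the background. The first listed as higher was the region near Cr2 (chr1:195241551-195242050), with 937, 640, 2042 and 815 in het TAK-418, against 826, 702, 838 and 1061 in het vehicle. A single value of 2042 exceeded all others there, and without it the log2 difference changed sign, to -0.11. A region near Scgb2a2 (chr19:9836601-9837050) had 130, 118, 100 and 140 in het TAK-418, against 126, 22, 78 and 4 in het vehicle. All 4 het TAK-418 scores exceeded 3 of the 4 het vehicle scores (log2 difference 1.90 ± 0.97 SE; limma adjusted p = 0.691).

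Mir17hg (chr14:115041101-115041750) was among the 5 higher, with 159, 93, 260 and 77 in het TAK-418, against 112, 138, 11 and 94 in het vehicle (log2 difference 1.02 ± 0.92 SE; limma adjusted p = 0.691). It was listed as lower in het vehicle against WT vehicle above, and the 2 comparisons share the het vehicle libraries, whose single low score occurs in both. The other 2 listed as higher were 92.7 kb from Kcnh5 (chr12:74803801-74804700) and at Gm46840 (chr4:3228401-3228950). Of the 7 stretches listed as lower, the first 5 were 2 stretches of Chaserr, a lncRNA that restrains its neighbour Chd2, Dleu2, Gm13238 and a region 15.2 kb from Mir15a. At Dleu2 (chr14:61681601-61682100) the scores were 46, 27, 126 and 55 in het TAK-418, against 54, 128, 154 and 58 in het vehicle, with overlap (log2 difference -0.70 ± 0.82 SE; limma adjusted p = 0.691).

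The groups' scores did not overlap at 0.35% of the 1715 regions of this table and at 0 of the 31 in intergenic regions. limma with Benjamini-Hochberg adjustment called 0 regions (0% of 1715; 17 at an unadjusted p under 0.05, 0 of them intergenic; smallest adjusted p = 0.691). Of the 24 listed regions that were higher in het TAK-418, 7 lay in regions without an H3K4me1 peak, and of the 7 that were lower, 5 did. The median log2 difference was 0.559 over the 31 and 0.573 over the table.

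More were also listed as higher than as lower in WT TAK-418 against WT vehicle. Of the 944 regions 27 (2.86%) were listed as higher in WT TAK-418 than in WT vehicle and 10 (1.06%) as lower, against 9.28% and 6.47% of all merged regions. The 5 listed as higher with the smallest authors' p were chr8:20121801-20122800, a region 45.4 kb from the cell cycle kinase gene Cdk1 (chr10:69398801-69399200), Dleu2, 6820431F20Rik and Gm13034. Near Cdk1 the scores were 155, 48, 129 and 70 in WT TAK-418, against 23, 36, 49 and 62 in WT vehicle, and 3 of the 4 WT TAK-418 scores lay above all WT vehicle scores (log2 difference 1.16 ± 0.73 SE; limma adjusted p = 0.779). At Dleu2 they were 81, 107, 257 and 65 in WT TAK-418, against 11, 32, 136 and 71 in WT vehicle, with overlap. Dleu2 was thus listed as higher here and as lower in het TAK-418 against het vehicle, and the difference between the genotypes was not tested.

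Mir124a-3 appeared with both directions. The stretch chr2:180893401-180893950 had 87, 75, 156 and 171 in WT TAK-418, against 72, 103, 117 and 23 in WT vehicle, and was listed as higher. The stretch chr2:180894101-180894550 of the same region had 25, 70, 123 and 36 in WT TAK-418, against 40, 140, 168 and 22 in WT vehicle, and was listed as lower. Mir9-3 and Mir193b were listed as higher and Chaserr as lower, all with overlapping scores. Without 1 library at a time the log2 difference ran from -0.67 to 0.26 at Chaserr and from -0.88 to 0.08 at the lower Mir124a-3 stretch, so neither direction was stable. These named stretches at Mir124a-3, Mir9-3, Mir193b and Chaserr were chosen after their values were seen. The 5 listed as lower by the rule were at Gm20584, near Csf2ra, at chr8:20100201-20100600, at Vmn2r-ps17 and at E130102H24Rik near Ak4.

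The groups' scores did not overlap at 0.54% of the 2780 regions of this table and at 0 of the 37 in intergenic regions. limma with Benjamini-Hochberg adjustment called 0 regions (0% of 2780; 66 at an unadjusted p under 0.05, 0 of them intergenic; smallest adjusted p = 0.779). The median log2 difference was 0.404 over the 37 and 0.321 over the table. Without an H3K4me1 peak, 15 listed regions were higher and 7 lower.

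Treated heterozygotes set against untreated wild type gave nearly even counts. Of the 944 regions 18 (1.91%) were listed as higher in het TAK-418 than in WT vehicle and 17 (1.8%) as lower, against 1.8% and 13% of all merged regions. Near Scgb2a2 the scores were 136, 127, 109 and 147 in het TAK-418, against 85, 50, 60 and 14 in WT vehicle. This was the only listed intergenic region in any of the 4 tables whose groups did not overlap (log2 difference 1.54 ± 0.87 SE; limma adjusted p = 0.613). In this comparison limma gave every listed intergenic region the same SE of 0.87. The SE and p values here therefore do not measure the spread of a single region's scores. Near Asmt the scores were 431, 399, 329 and 597 in het TAK-418, against 388, 250, 26 and 216 in WT vehicle, with 1 WT vehicle score inside the het TAK-418 range. The other 3 listed as higher were near Kcnh5, at Gm46840 and at 6820431F20Rik.

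The first of those with lower scores was a region near Smad7, which encodes an inhibitor of TGF-β signalling, with 11, 10, 73 and 23 in het TAK-418, against 16, 65, 140 and 133 in WT vehicle (chr18:75342701-75343050; log2 difference -1.63 ± 0.87 SE; limma adjusted p = 0.613). B330016D10Rik near Spen had 49, 0, 278 and 54 in het TAK-418, against 92, 229, 214 and 177 in WT vehicle. Of the het TAK-418 scores 1 was 0 and 1 exceeded all WT vehicle scores (log2 difference -2.52 ± 0.87 SE; limma unadjusted p = 0.00399, adjusted p = 0.455). Without 1 library at a time its log2 difference ran from -3.59 to -0.89. Chaserr had 61, 112, 402 and 72 in het TAK-418, against 165, 108, 498 and 291 in WT vehicle. Gm20584 and a region near Cbx8, a Polycomb gene, completed the 5.

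The groups' scores did not overlap at 0.404% of the 2722 regions of this table and at 1 of the 39 in intergenic regions. limma with Benjamini-Hochberg adjustment called 8 regions of the table (0.294%; 174 at an unadjusted p under 0.05, 2 of them intergenic), and 0 of the 8 lay in an intergenic region, where the smallest adjusted p was 0.455. Without regions on X and Y, or with scores centred on the library median, it called 0. Centring took out -0.674 of the log2 difference at the median, and 21 of the 39 were higher in het TAK-418 as deposited and 24 after centring. Over all 2722 regions, 27.5% were higher as deposited and 41.8% after centring. Of the 18 listed regions that were lower, 14 lay in regions without an H3K4me1 peak, and of the 21 that were higher, 4 did.

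**Figure D4:**
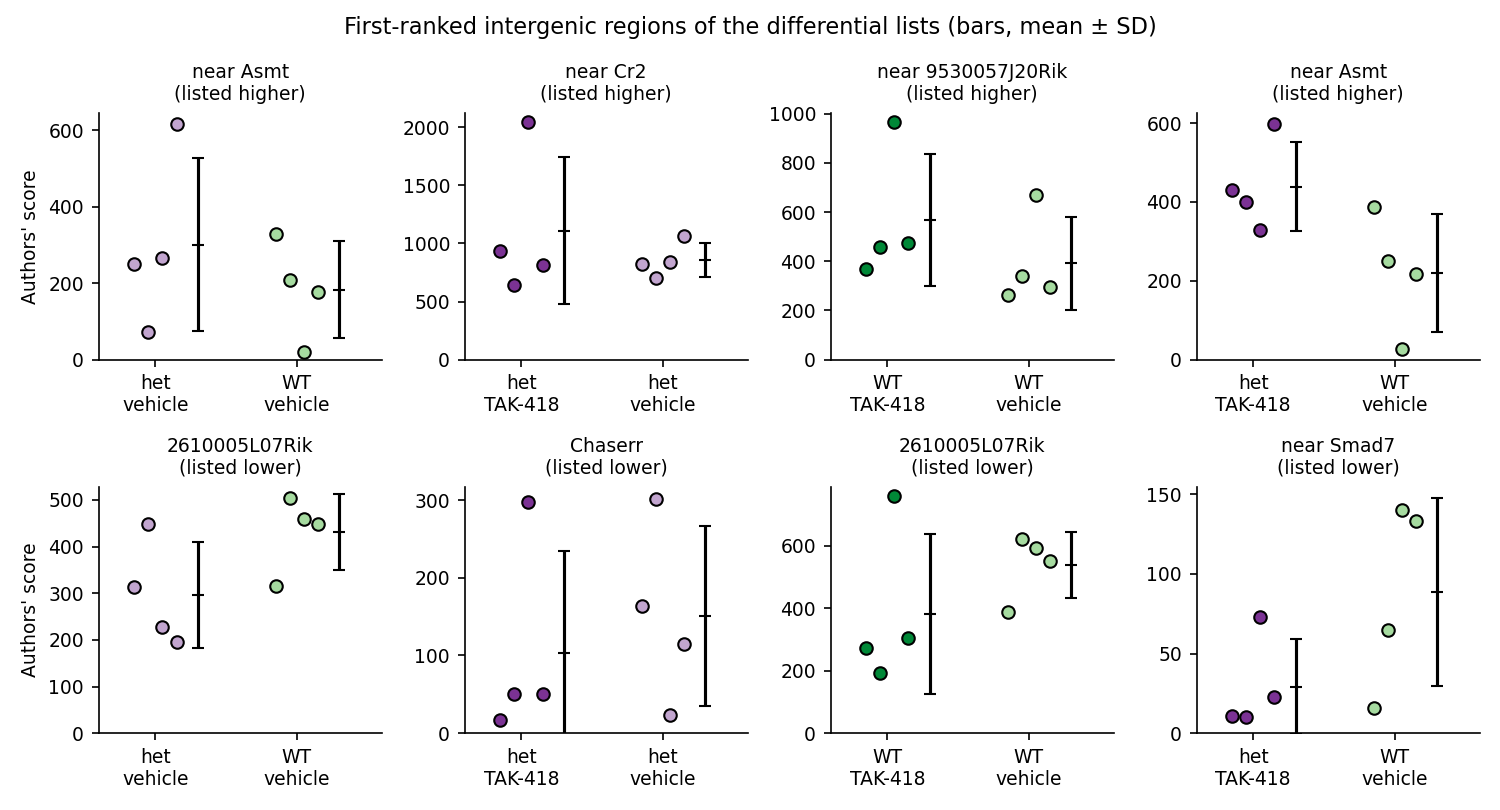
Authors' scores (y axis, linear, own scale per panel) of the first-ranked intergenic region listed as higher (top) and as lower (bottom) in each of the 4 comparisons (columns), with 4 libraries per group. Bars are the mean with SD, cut at 0; the groups overlap in all 8 panels.

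In 7 of the 8 sets of scores a single place in the list carried the highest value in most intergenic regions without an H3K4me1 peak. In het TAK-418 the third score was the highest in 15 of the 18 such regions of the comparison with WT vehicle, and in 9 of 12 of the comparison with het vehicle. In WT TAK-418 the third score was the highest in 16 of 22, and in WT vehicle in 15 of 22. In het vehicle the second score led in 8 of 10 of the comparison with WT vehicle, but in 6 of 12 of the comparison with het TAK-418, where the other places had 2 each. In regions with an H3K4me1 peak the highest het TAK-418 score against WT vehicle stood at the 4 places in 5, 4, 5 and 7 of 21, while the first WT vehicle score led in 13 of 21. By replicate number, the long list was replicate 3 in het TAK-418, WT TAK-418 and WT vehicle, and replicate 2 in het vehicle. These numbers equal the leading places, but the scores name no library, so the places were not tied to libraries. The part of a single score per group in the differences was not tested.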

How the data were processed

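The deposited peak lists, 1 per library, follow the layout of MACS2 broad peaks; the submitters' processing notes name MACS2, MACS, bedtools and mm10, without roles. Each deposited peak carries the authors' fold enrichment (a ratio) and −log10 p and −log10 q. The deposited differential tables give whole-number values per library, used here as a score with unknown normalization and p adjustment. Depth is unknown, since no file gives read counts. Peaks overlapping by 1 base were merged (Python 3.11.15, pandas 2.3.3), and genes, promoters and miRNAs came from RefSeq (GRCm38.p6). Noncoding genes were tied to a region by the start where strand was known, otherwise by either end, within 2 kb. Tests were exact permutation tests (numpy 2.4.6) and limma 3.58.1 (R 4.3.3) on log2(score + 1), with the limma step tested on simulated data. The regions, lists and tests were chosen with earlier results of these data known. Named were genes of the noncoding list and miRNA genes within 2 kb, the 12 widest regions, up to 5 listed higher and 5 lower per differential table by the authors' p, and the 5 regions in most short lists. Libraries were grouped by genotype and treatment as labelled, 1 per mouse and mark. How reads were aligned is not given in the sources used here. Differential H3K4me1 tables were not used here. Alternatives are given in the closing section.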

Additional observations from a re-analysis of the deposited data

Results flagged for a closer look

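In each of the 4 groups 1 H3K4me3 library stood far above the other 3 in the number of intergenic regions with a peak: 805 in het TAK-418, 659 in het vehicle, 852 in WT TAK-418 and 542 in WT vehicle. These are the long lists that defined the regions.

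Among the scores of the regions named from the differential tables, 12 of 80 groups of 4 scores held a value far from the other 3. The groups were picked by the authors' p and share libraries and stretches, so no expected number can be set beside this count. In het TAK-418 against WT vehicle they were 402 at Chaserr, 144 near Cbx8 and 201 at 6820431F20Rik in het TAK-418, and 22 at 6820431F20Rik in WT vehicle. In het TAK-418 against het vehicle they were 298 at Chaserr and 138 near Mir15a in het TAK-418, and 178 near Mir15a in het vehicle. In het vehicle against WT vehicle they were 169 at B330016D10Rik and 15 near Mirlet7a-1 in het vehicle, and 294 at chr8:20122151 and 69 near Apbb1ip in WT vehicle. In WT TAK-418 against WT vehicle it was 20 at 6820431F20Rik in WT vehicle.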

How the results depend on the processing

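The number of regions was 944, and 589 in 3 or more lists, 381 in all 4 and 164 with peaks of −log10 q of at least 5; without 1 long list it ran from 675 to 882. The share at a noncoding gene was 54.2% within 5 kb and 62.5% for regions of all 4 lists. Per 100 peaks the difference in regions with a peak in short lists turned to 0.948 for het vehicle against WT vehicle, -0.256 for het TAK-418 against het vehicle, 0.795 for WT TAK-418 against WT vehicle and 0.691 for het TAK-418 against WT vehicle. On the log10(number + 1) scale, het TAK-418 against het vehicle gave -0.0223 with peaks of −log10 q of at least 5. Without 1 library at a time it gave -0.141 to 0.133, and WT TAK-418 against WT vehicle gave -0.229 to 0.0482. The difference on that scale ran from -0.432 to -0.150 for het vehicle against WT vehicle (-0.1003 with −log10 q of at least 5) and from -0.424 to -0.162 for het TAK-418 against WT vehicle (-0.123). Among regions without an H3K4me1 peak these were -0.748 and -0.589. None passed the test. limma's 8 calls for het TAK-418 against WT vehicle became 0 with log2(score + 10), with centred scores and without X and Y, and 0 to 11 without 1 library; the other comparisons went from 0 to at most 1 (het TAK-418 against het vehicle) and 3 (WT TAK-418 against WT vehicle) without 1 library. Of named regions, Gm20584 turned to 0.0663 in het vehicle against WT vehicle after centring. Without 1 library, 3 in het TAK-418 against het vehicle turned: near Cr2 (-0.11 to 0.45), near Kcnh5 (-0.15 to 0.95) and Gm13238 (-0.84 to 0.0715, with 0.0174 and 0.0531 also above 0). In WT TAK-418 against WT vehicle, Chaserr (-0.67 to 0.26) and the lower Mir124a-3 stretch (-0.88 to 0.08) turned too. Leaving out regions with an H3K4me1 peak, an alternative chosen after seeing the data, changed the counts of listed regions to 1 higher and 9 lower for het vehicle against WT vehicle, 7 higher for het TAK-418 against het vehicle, 15 higher for WT TAK-418 against WT vehicle and 4 higher for het TAK-418 against WT vehicle. The cause of these changes was not tested. Leaving out regions on X and Y and leaving out each long list were also chosen after seeing the data. No paired analysis was possible because replicate numbers follow accession order and the scores name no library.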
